A study of Homo sapiens with 16 samples.

Results

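The genes for sulfiredoxin, the thioredoxins, their reductases and the peroxiredoxins were 10 of the 25221 genes in the count table of this series: SRXN1, TXN, TXN2, TXNRD1, TXNRD2, PRDX1, PRDX2, PRDX3, PRDX5 and PRDX6. They were taken by gene symbol, and all 10 symbols were found. The family was chosen by results already known from these data, among them the response of SRXN1 to the compound, so the changes of these 10 genes with the compound are a description and no p is given for them. The difference between the cell lines was not used in that choice and was tested.

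Polyadenylated RNA ends were measured (QuantSeq 3′ FWD libraries) in 2 established human leukemia lines, with 4 libraries in each of 4 groups and 16 in all. MOLM13 is a line of acute myeloid leukemia (FAB M5a) that carries the MLL-AF9 fusion, and K562 is an erythroid-leaning line of chronic myeloid leukemia in blast crisis that carries BCR-ABL. Each line received DMSO, the solvent, or Ro 08-2750 (Ro) in the same solvent at 20 µM for 4 h, in the same serum-containing medium. Ro is a small molecule that inhibits RNA binding by the Musashi proteins MSI1 and MSI2. All 4 groups therefore shared the medium, the solvent and the duration, and each disease was represented by 1 line. Libraries were labelled as pairs 1 to 4 within a line, 1 DMSO and 1 Ro library each. The sources used here do not say what the members of a pair shared or that pairs were separate cultures, so p-values cover the spread between these libraries, which may be technical.

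Peroxiredoxins are abundant enzymes that reduce hydrogen peroxide and organic peroxides with a reactive cysteine. In the typical members the oxidized cysteine is restored by a thioredoxin, which a thioredoxin reductase then reduces again at the expense of NADPH. When the cysteine is oxidized too far, sulfiredoxin repairs it with ATP. SRXN1, TXN, TXNRD1 and PRDX1 are known targets of the stress-responsive transcription factor NRF2, which binds antioxidant response elements, and PRDX2 is one of the most abundant proteins of red blood cells.

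Promoter windows of 2 members are shown because SRXN1 had the largest mean change with Ro of the 10 genes in both lines and TXNRD1 was the one member among those with windows at hand that held the core letters of the antioxidant response element. The windows are from RefSeq (GRCh38.p14) and run from 250 bases before to 50 bases after an annotated start, 5′ to 3′ on the strand of the gene. Capitals mark matches to the core TGACNNNGC on either strand, and positions count the first transcribed base as 1. The SRXN1 window lies at chr20:653151-653450 on the minus strand, and the TXNRD1 windows, from 2 annotated starts, lie at chr12:104215529-104215828 and chr12:104286782-104287081 on the plus strand.
SRXN1: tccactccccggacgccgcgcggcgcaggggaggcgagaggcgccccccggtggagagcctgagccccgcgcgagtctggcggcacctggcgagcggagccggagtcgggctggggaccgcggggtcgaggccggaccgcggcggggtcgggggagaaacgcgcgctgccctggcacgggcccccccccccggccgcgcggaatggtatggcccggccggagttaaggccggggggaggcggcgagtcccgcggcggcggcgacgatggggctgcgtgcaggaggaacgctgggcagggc
TXNRD1, first start: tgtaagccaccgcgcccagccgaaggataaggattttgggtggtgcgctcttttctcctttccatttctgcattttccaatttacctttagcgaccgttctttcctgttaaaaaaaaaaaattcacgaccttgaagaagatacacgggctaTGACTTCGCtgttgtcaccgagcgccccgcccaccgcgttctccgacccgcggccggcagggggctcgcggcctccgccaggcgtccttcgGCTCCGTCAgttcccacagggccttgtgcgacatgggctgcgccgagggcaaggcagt
TXNRD1, second start: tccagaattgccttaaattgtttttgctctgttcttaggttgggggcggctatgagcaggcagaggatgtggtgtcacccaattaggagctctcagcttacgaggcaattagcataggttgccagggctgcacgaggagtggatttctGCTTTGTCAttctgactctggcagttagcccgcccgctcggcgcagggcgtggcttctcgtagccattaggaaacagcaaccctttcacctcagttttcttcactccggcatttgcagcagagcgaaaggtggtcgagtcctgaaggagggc
No match to the core lay in the SRXN1 window, of which 80.0% was G or C. The first TXNRD1 window held TGACTTCGC on the sense strand from -99 to -91 and TGACGGAGC on the antisense strand from -8 to 1. The second held TGACAAAGC on the antisense strand from -102 to -94. Windows were at hand for 7 of the 10 members (SRXN1, TXN, TXNRD1, TXNRD2, PRDX2, PRDX3 and PRDX5). The AP-1 motif TGACTCA was in none of these, and TATAAA lay in the TXN window from -30 to -25, overlapping an antisense match from -32 to -27, and in 1 of 3 TXNRD2 windows, on the antisense strand, from -120 to -115. Of all 35116 windows of this length, 13.3% held the antioxidant core, 4.95% the AP-1 motif and 11.5% TATAAA, so such matches are common, and a missing match says only that these letters are not in this stretch.

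Libraries held between 3143129 (K562 DMSO, pair 2) and 43571060 (K562 DMSO, pair 1) counts, and the second shallowest was K562 DMSO of pair 4 with 4383241. Every member had between 62 and 19886 counts in every library, and all 10 passed the filter on low counts in every comparison. The unit of level is CPM, which scales counts to 1 library size, with TMM factors estimated over the 16 libraries. Because each transcript gives 1 tag at its 3′ end, CPM does not grow with transcript length, and CPM values of different genes are compared here as such. The lines carried their own markers: 6 of 8 K562 markers were higher in every K562 library, with GATA1 and KLF1 at or below 0.203 CPM in MOLM13, and the 8 summed to between 11.3 and 20.8 CPM in MOLM13 libraries and between 492 and 698 CPM in K562 libraries. Likewise 6 of 8 MOLM13 markers were higher in every MOLM13 library, with sums of 664 to 897 against 148 to 297 CPM. One locus, LOC100507412, took from 4.11% to 24.3% of the counts in MOLM13 libraries and from 0.269% to 6.44% in K562 libraries. Its part in the values below was not tested.

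The family was led by a different gene in each line. In MOLM13 treated with DMSO, TXNRD1, the cytosolic reductase, had the highest level (364 ± 48.1 CPM, mean ± SD, n = 4), followed by TXN, cytosolic thioredoxin (251 ± 43.8), and PRDX6, a peroxiredoxin that works with glutathione (169 ± 31.3). In K562 treated with DMSO the order began with PRDX6 (407 ± 29.9 CPM), TXNRD1 (242 ± 31.9) and TXN (185 ± 47.1). TXNRD2, the mitochondrial reductase, was lowest in both, with 7.79 ± 1.09 CPM in MOLM13 and 40.1 ± 9.27 CPM in K562. The distance from the highest to the lowest mean was 46.7-fold in MOLM13 and 10.1-fold in K562. In MOLM13 the DMSO libraries of TXNRD1 did not overlap with those of TXN, nor TXN with PRDX6, TXN2 (103 ± 28.0 CPM) with SRXN1 (50.5 ± 14.7) or PRDX1 (20.3 ± 3.67) with TXNRD2. PRDX6, PRDX3 (117 ± 32.3) and TXN2, then SRXN1, PRDX2 (30.4 ± 5.43), PRDX5 (23.5 ± 2.48) and PRDX1, each overlapped with its neighbour. In K562 the gaps lay between PRDX6 and TXNRD1 and between TXN and TXN2 (110.0 ± 14.8 CPM). Below them SRXN1 (83.3 ± 9.90), PRDX2 (75.8 ± 11.6), PRDX3 (75.3 ± 10.4), PRDX1 (74.7 ± 67.5), PRDX5 (54.2 ± 10.7) and TXNRD2 each overlapped with the next. The same leader and the same lowest gene were found in the Ro libraries of each line. In bulk RNA, fewer cells with a transcript and less of it per cell cannot be told apart. How reads that fit several places were counted is not given in the sources used here, and several members have processed pseudogenes elsewhere in the genome, so an order between genes is less certain than a difference of 1 gene between libraries.

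**Figure D1:**
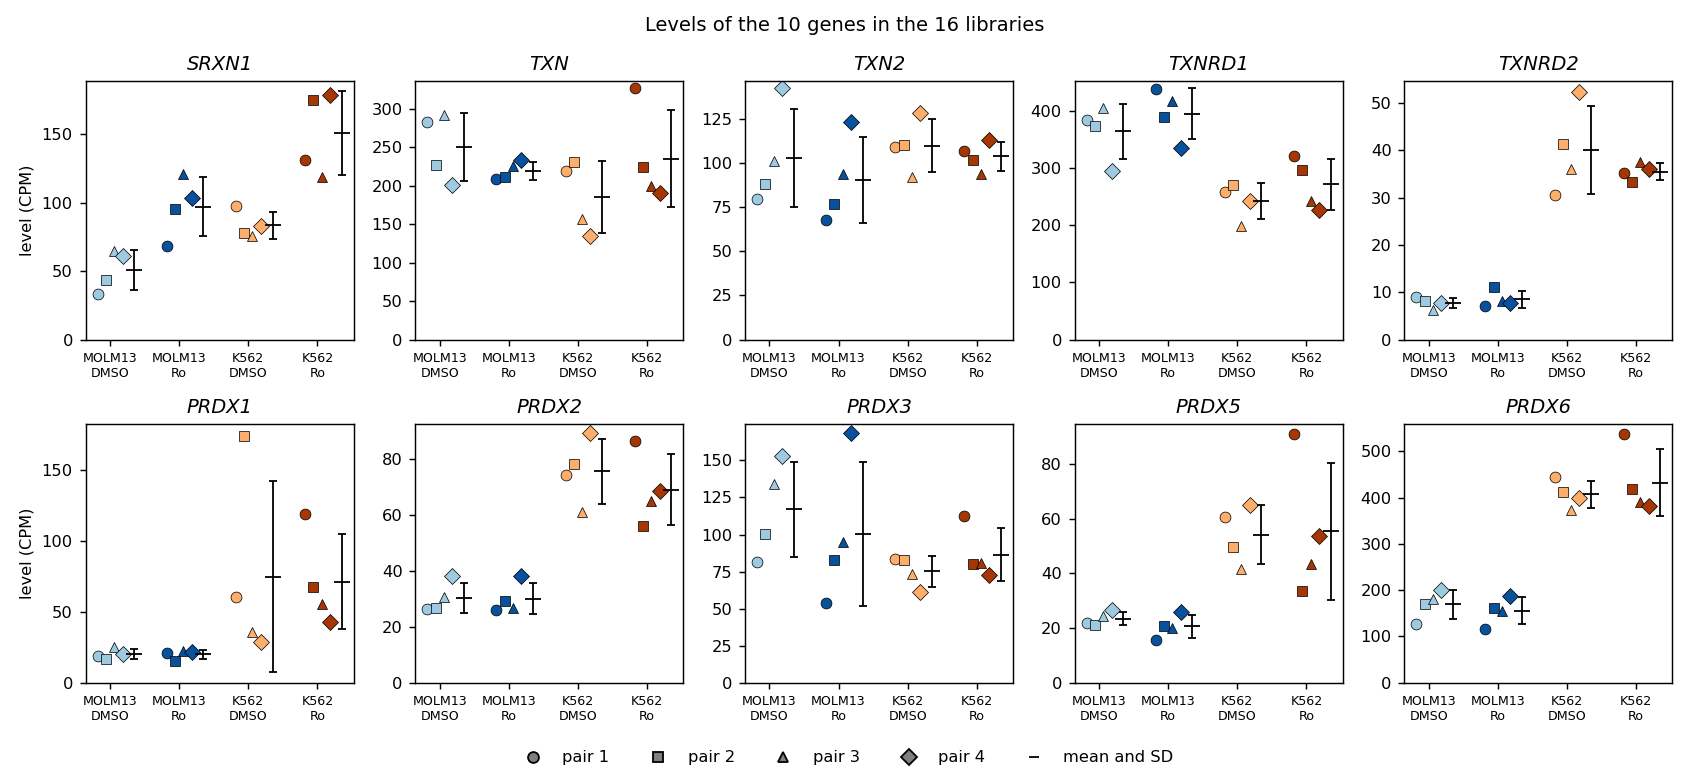
Level of each of the 10 genes (CPM, linear axis from 0, a scale of its own for each gene) in the 16 libraries, by line and treatment; symbols give the pair, and the bar gives the mean and SD of 4 libraries. SRXN1 in the Ro libraries sat above every DMSO library of the same line, while PRDX1 in K562 DMSO ranged from 28.4 to 174 CPM.

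SRXN1 encodes sulfiredoxin, which returns over-oxidized peroxiredoxins to their working form (chromosome 20, 646615 to 653370, minus strand, GRCh38). In MOLM13 it measured 33.1, 43.8, 64.3 and 60.8 CPM with DMSO in pairs 1 to 4, and 68.5, 95.3, 120.5 and 103 CPM with Ro. In K562 it measured 97.4, 77.6, 75.3 and 83.0 CPM with DMSO and 131, 175, 119 and 179 CPM with Ro. In each line the lowest Ro library was above the highest DMSO library, which held for 0.665% of all genes tested in MOLM13 and 0.584% in K562. The change within pairs was 1.05, 1.12, 0.91 and 0.76 on the log2 scale in MOLM13 (mean 0.96 ± 0.16, SD, n = 4 pairs) and 0.43, 1.17, 0.66 and 1.10 in K562 (0.84 ± 0.36). All 8 pairs were higher with Ro, and the ranges of the lines overlapped. The fitted change was 1.94-fold in MOLM13 and 1.82-fold in K562. It ranked 16, 2, 5 and 19 among 8525 genes with a mean of at least 10 CPM in MOLM13 pairs 1 to 4, counted from the most raised, and 406, 133, 6 and 587 among 8454 such genes in K562. All 4 MOLM13 pairs and K562 pair 3 thus placed SRXN1 near the top. K562 pairs 1 and 4 held many genes with a larger difference. The K562 DMSO library of pair 4 was shallow, that of pair 2 (rank 133) was shallower, and that of pair 1 was the deepest of the series. The part of depth in these ranks was not tested. With K562 pairs 1 and 3 alone, the fitted log2 change was 0.54 in place of 0.86.

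No other member had such a separation, and the count of members past a threshold is given only beside the share of all genes. With edgeR's quasi-likelihood test and no term for the pair, 0 of 10 members and 0% of all genes (0 of 15031) had an adjusted p under 0.05 in MOLM13, where 126 genes rose and 49 fell at an unadjusted p under 0.05 and DESeq2 called 1 gene. With the pair as a block, which the labels and the correlation of paired libraries allow, 1 of 10 members (SRXN1) and 2.11% of genes passed in MOLM13. In K562 neither fit called a gene (0% and 0% of 15227, 0 of 10 members), with 52 up and 135 down at an unadjusted p under 0.05 without the block and 129 and 193 with it, and DESeq2 called 0 genes without the block and 2 with it. With K562 pairs 1 and 3 alone, 4 of 10 members (SRXN1, TXN, PRDX1 and PRDX5) and 2.46% of genes passed, all 4 members higher with Ro. In these pairs 9 and 10 of the 10 members were higher with Ro, so this count depends on which pairs were kept. With all 4 pairs it was 0 of 10. Since these contrasts chose the family, nothing is read from the counts.

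TXN, the cytosolic thioredoxin that hands electrons to peroxiredoxins, differed in direction between pairs and lines. In MOLM13 it measured 283, 227, 292 and 201 CPM with DMSO and 209, 211, 226 and 234 CPM with Ro. In K562 it measured 219, 231, 156 and 135 CPM with DMSO and 327, 225, 200 and 190 CPM with Ro. DMSO and Ro libraries overlapped in both lines. The log2 changes were -0.44, -0.10, -0.37 and 0.22 in MOLM13, so that 3 of 4 pairs were lower with Ro, and 0.58, -0.04, 0.36 and 0.50 in K562, where 3 of 4 were higher. Whether the lines differed in this change was not tested, because the change was part of the choice of genes. TXN2, the mitochondrial thioredoxin, was between 79.4 and 143 CPM with DMSO and between 67.6 and 123 CPM with Ro in MOLM13, and between 92.2 and 128 and between 93.7 and 113 CPM in K562. Its changes in MOLM13 pairs were close to each other, at -0.23, -0.20, -0.11 and -0.21 on the log2 scale. In K562 they were -0.03, -0.12, 0.02 and -0.18.

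TXNRD1, the selenium-containing reductase that keeps TXN reduced, measured 385, 374, 404 and 295 CPM with DMSO in MOLM13 and 439, 389.9, 417 and 335 CPM with Ro. In K562 it measured 258, 271, 198 and 242 CPM with DMSO and 321, 296, 242 and 226 CPM with Ro. DMSO and Ro libraries overlapped in both lines. Paired differences were 0.19, 0.06, 0.04 and 0.19 on the log2 scale in MOLM13 and 0.31, 0.13, 0.29 and -0.10 in K562. SRXN1 and TXNRD1 were the 2 members higher in all 4 MOLM13 pairs, which held for 10.2% of genes, and SRXN1 alone was higher in all 4 K562 pairs, which held for 6.84%. TXNRD2, its mitochondrial counterpart, lay between 6.35 and 11.0 CPM in MOLM13, where the counts were lowest, and its log2 changes ran from -0.34 to 0.44 in MOLM13 and from -0.54 to 0.20 in K562.

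**Figure D2:**
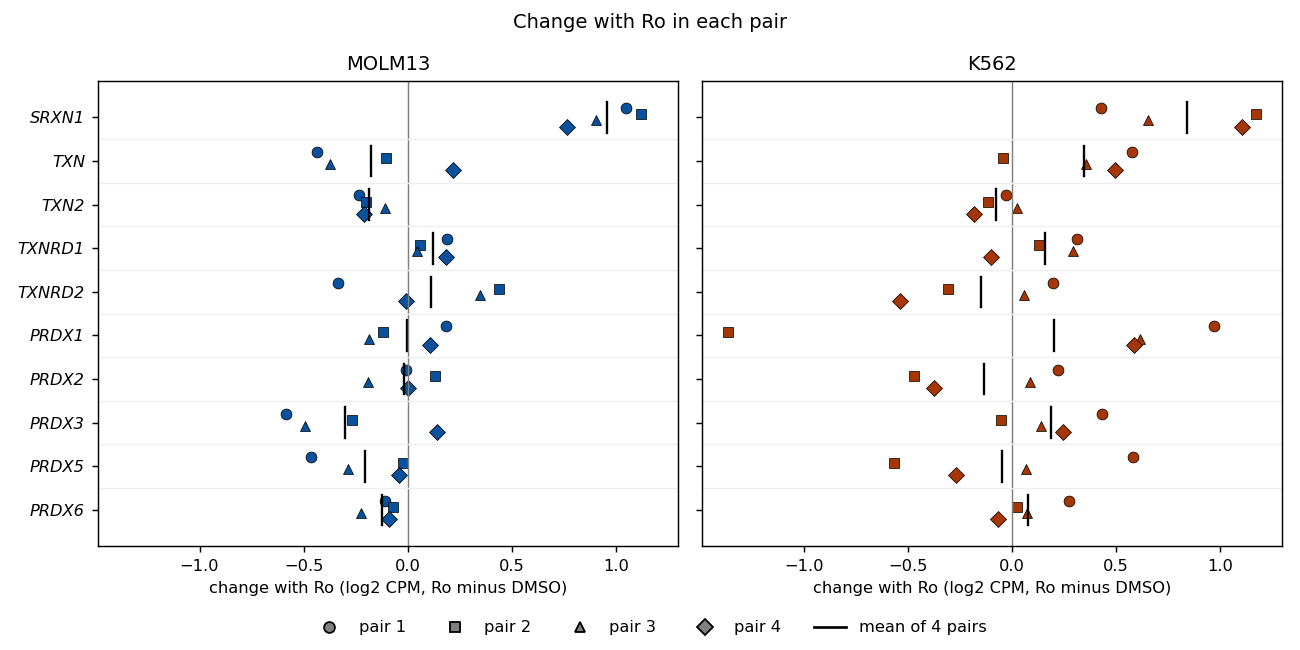
Change with Ro of each gene in each pair (log2 CPM, Ro minus DMSO; linear axis), MOLM13 at left and K562 at right; symbols give the pair and the bar the mean of 4 pairs. SRXN1 stood at 0.43 or more in all 8 pairs, while PRDX1 in K562 ran from -1.36 in pair 2 to 0.97 in pair 1.

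The peroxiredoxins had no common direction with Ro. In MOLM13, 3 members were lower in all 4 pairs (TXN2, PRDX5 and PRDX6), which held for 14.9% of genes, although scaling by total counts put PRDX5 and PRDX6 higher in pair 4. None was lower in all 4 pairs of K562, where this held for 4.64% of genes. PRDX3, the mitochondrial peroxiredoxin served by TXN2, measured 81.2, 100, 134 and 153 CPM with DMSO and 54.0, 83.1, 95.1 and 169 CPM with Ro in MOLM13. Its log2 changes there were -0.59, -0.27, -0.49 and 0.14, lower in 3 pairs and higher in pair 4, which also held the highest PRDX3 level of both treatments. In K562 PRDX3 measured 83.4, 83.1, 73.4 and 61.3 CPM with DMSO and 112, 80.0, 80.7 and 72.6 CPM with Ro. PRDX6 was lower by 0.07 to 0.22 on the log2 scale in the MOLM13 pairs, and ran from -0.07 to 0.27 in K562. PRDX5, an atypical peroxiredoxin found in mitochondria, peroxisomes and cytosol, ran from -0.46 to -0.02 in MOLM13 and from -0.57 to 0.58 in K562. PRDX2, a cytosolic peroxiredoxin, ran from -0.19 to 0.13 and from -0.47 to 0.22.

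PRDX1, the other main cytosolic peroxiredoxin, was steady in MOLM13 and the most variable member in K562. In MOLM13 it measured 18.5, 16.9, 25.3 and 20.3 CPM with DMSO and 21.0, 15.5, 22.3 and 21.9 CPM with Ro. In K562 it measured 60.6, 174, 36.0 and 28.4 CPM with DMSO and 119, 67.5, 55.2 and 42.7 CPM with Ro. Pairs 1, 3 and 4 of K562 were higher with Ro by 0.97, 0.61 and 0.59 on the log2 scale, and pair 2 was lower by 1.36. The DMSO library of pair 2 held both the fewest counts of the series and the highest PRDX1 level, and the fitted K562 log2 change was -0.04 with all libraries and 0.76 without that one. It was 0.06 and 0.14 without the Ro library of pair 3 or of pair 4, and 0.24 with the pair as a block, so no direction is given. In ranks counted from the most raised gene, PRDX1 was 4 and 12 of 8454 in K562 pairs 1 and 3 and 8446 in pair 2. An exon of PRDX1 overlaps MMACHC on the opposite strand by 379 bases, and the strand setting of the counting is not given in the sources used here, so their reads cannot be told apart there. MMACHC was at 6.20 to 13.9 CPM in every library.

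Across the family the K562 pairs split, with most members higher in pairs 1 and 3 and fewer in pairs 2 and 4. In K562, 9, 3, 10 and 4 of the 10 members were higher with Ro in pairs 1 to 4, and the median log2 change of the 10 was 0.37, -0.09, 0.11 and -0.08, while the median of all genes tested stayed between -0.02 and 0.05. All 5 peroxiredoxins were higher in pairs 1 and 3, 1 was in pair 2 and 2 were in pair 4. In MOLM13, 3, 4, 3 and 6 members were higher, with medians of -0.17, -0.05, -0.19 and 0.06 beside all-gene medians of -0.02 to -0.01. Scaling by total counts left the K562 counts of members at 9, 3, 10 and 4, but gave 9 members and 5 peroxiredoxins higher in MOLM13 pair 4 in place of 6 and 3. It moved the median of all genes to 0.16 in MOLM13 pair 3 and to -0.13 in K562 pair 1. Pairs 2 and 4 of K562 are those whose DMSO library was shallow, and the part of depth in these differences was not tested.

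The genes whose pattern was most like that of SRXN1 were found over the 16 libraries, after the mean of each line was taken off, among 10408 genes with at least 10 counts in every library. Among them were GSR, glutathione reductase (Pearson r = 0.84), BRD2, a bromodomain protein (0.78), BLOC1S2, a subunit of an organelle-biogenesis complex (0.77), and DNAJB6, a co-chaperone (0.77). These coefficients are over libraries that share treatment, pair and depth, and are a description. The other members were far from this pattern, from -0.16 for TXNRD2 to 0.21 for TXNRD1 and 0.25 for PRDX6. GSR was higher with Ro in 7 of 8 pairs, by up to 0.79 on the log2 scale in MOLM13 pair 1, and was at -0.07 in MOLM13 pair 4. BRD2 was higher in all 8, from 0.02 to 0.39.

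Between the untreated lines, 8 of the 10 members differed, 6 lower and 2 higher in MOLM13, by edgeR's quasi-likelihood test at an adjusted p under 0.05. Of all 15268 genes tested, 41.3% passed, 20.3% lower and 21.1% higher in MOLM13. The 2 higher members are thus at the share of all genes, and the 6 lower ones stand beside 20.3%. In 6 members (SRXN1, TXNRD2, PRDX1, PRDX2, PRDX5 and PRDX6) every MOLM13 DMSO library was below every K562 DMSO library, a separation found in 18.9% of genes, and in TXNRD1 every MOLM13 library was above, as in 20.5% of genes. TXN, TXN2 and PRDX3 overlapped.

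The reductases of cytosol and mitochondrion differed in opposite directions between the lines. TXNRD2 measured 8.96, 8.11, 6.35 and 7.76 CPM in MOLM13 and 30.6, 41.3, 36.2 and 52.4 CPM in K562 with DMSO, with no overlap. It was 5.12-fold lower in MOLM13 (log2 fold change -2.36, standard error 0.23, adjusted p = 2.42e-06 by edgeR), and its adjusted p was at most 2.88e-05 in 15 alternative settings of edgeR and DESeq2. TXNRD1 was 1.51-fold higher in MOLM13 (0.59, standard error 0.21, edgeR adjusted p = 0.0328), with 295 CPM as the lowest MOLM13 and 271 CPM as the highest K562 library. This call was lost without the filter (edgeR adjusted p = 0.0506) and with total-count scaling (0.475). Leaving out any one of 5 libraries (MOLM13 pair 1, 2 or 3, K562 pair 1 or 3) lost it too. The pair number as a block also lost it (0.0882), but pair numbers did not pair the lines. TXN was 1.36-fold higher in MOLM13 (0.44, standard error 0.24, edgeR adjusted p = 0.157) and TXN2 differed by -0.08 (standard error 0.23, adjusted p = 0.805), neither past the threshold.

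Of the 5 peroxiredoxins, 4 were lower in MOLM13. PRDX6 measured 126, 169, 182 and 199 CPM in MOLM13 and 444, 411, 372 and 399 CPM in K562 with DMSO, a 2.39-fold difference (log2 -1.26, standard error 0.21, edgeR adjusted p = 0.000306). PRDX2 was at 26.3 to 38.0 CPM against 61.2 to 89.3 CPM (-1.30, standard error 0.21, edgeR adjusted p = 0.000203). PRDX5 was at 21.1 to 26.5 CPM against 41.5 to 65.0 CPM (-1.20, standard error 0.21, edgeR adjusted p = 0.000364). PRDX1 was at 16.9 to 25.3 CPM against 28.4 to 174 CPM (-1.85, standard error 0.46, edgeR adjusted p = 0.00560). The size for PRDX1 rests on the shallow K562 library of pair 2, without which it was 2.01-fold in place of 3.62-fold lower (-1.01, standard error 0.27, edgeR adjusted p = 0.0102). PRDX4, the peroxiredoxin of the endoplasmic reticulum and no member of the chosen set, was lower too, at 23.5 to 28.0 CPM against 43.7 to 80.8 CPM (-1.29, standard error 0.22, edgeR adjusted p = 0.000381).

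PRDX3 alone among the peroxiredoxins had a higher mean in MOLM13, at 117 ± 32.3 against 75.3 ± 10.4 CPM (log2 0.64, standard error 0.24, edgeR adjusted p = 0.0429). The lowest MOLM13 library (81.2 CPM) lay below the highest K562 library (83.4 CPM). The call was lost without the filter (edgeR adjusted p = 0.0555) and with total-count scaling (0.402). Leaving out any one of 6 libraries (MOLM13 pair 2, 3 or 4, K562 pair 1, 3 or 4) lost it too. The pair number as a block also lost it (0.110), but pair numbers did not pair the lines. SRXN1 was 1.64-fold lower in MOLM13 with DMSO (-0.71, standard error 0.23, edgeR adjusted p = 0.0262), a call lost without the MOLM13 library of pair 1 (adjusted p = 0.0754), that of pair 2 (0.0849) or the K562 library of pair 1 (0.0834).

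**Figure D3:**
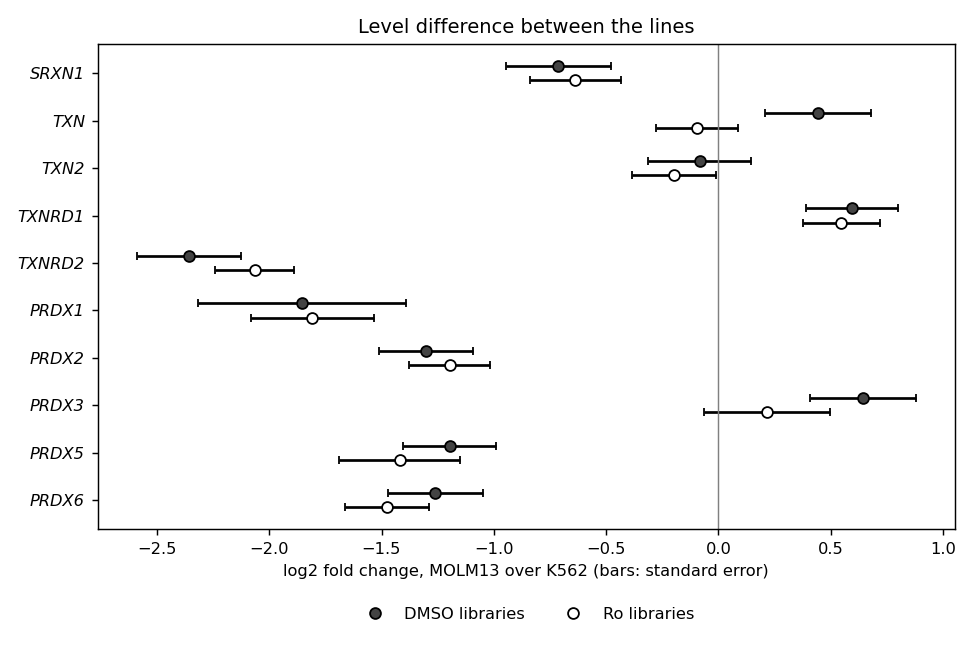
Fitted level difference between the lines for each gene (log2 fold change, MOLM13 over K562; bars are 1 standard error), from the 8 DMSO libraries (filled) and the 8 Ro libraries (open). TXNRD2 stood at -2.36 and -2.06, and the values for TXN and PRDX3 were 0.44 and 0.64 with DMSO and -0.10 and 0.21 with Ro.

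The same comparison in the 8 Ro libraries, which are tied to the DMSO libraries by their pairs and so are not independent of them, called 7 of the 10 members, beside 54.3% of all genes. These were SRXN1 (-0.64), TXNRD2 (-2.06), PRDX1 (-1.81), PRDX2 (-1.20), PRDX5 (-1.42) and PRDX6 (-1.47), lower in MOLM13, and TXNRD1 (0.55), higher. PRDX3 was at 0.21 (standard error 0.28, edgeR adjusted p = 0.537) and TXN at -0.10 (0.18, adjusted p = 0.685). The Ro libraries of PRDX1 were 15.5 to 22.3 CPM in MOLM13 and 42.7 to 119 CPM in K562, again without overlap, while those of SRXN1 overlapped.

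The make-up of the peroxiredoxin pool followed from these levels. Among the summed CPM of PRDX1 to PRDX6, PRDX6 made up 43.8% ± 2.37 (SD, n = 4) in MOLM13 and 54.8% ± 5.46 in K562 with DMSO. PRDX3 made up 29.9% ± 2.97 in MOLM13, from 26.9% to 33.2%, and 10.1% ± 1.26 in K562, from 8.79% to 11.7%, so that no library of one line reached the other. The remaining 4 genes each held between 4.07% and 12.8% of the pool in the DMSO libraries, except PRDX1 in K562 pair 2 with 19.8%. With Ro the share of PRDX3 was 27.6% ± 6.41 in MOLM13 and 11.1% ± 0.480 in K562, each mean within the spread of its DMSO libraries. These are shares of transcript tags, not of protein.

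**Figure D4:**
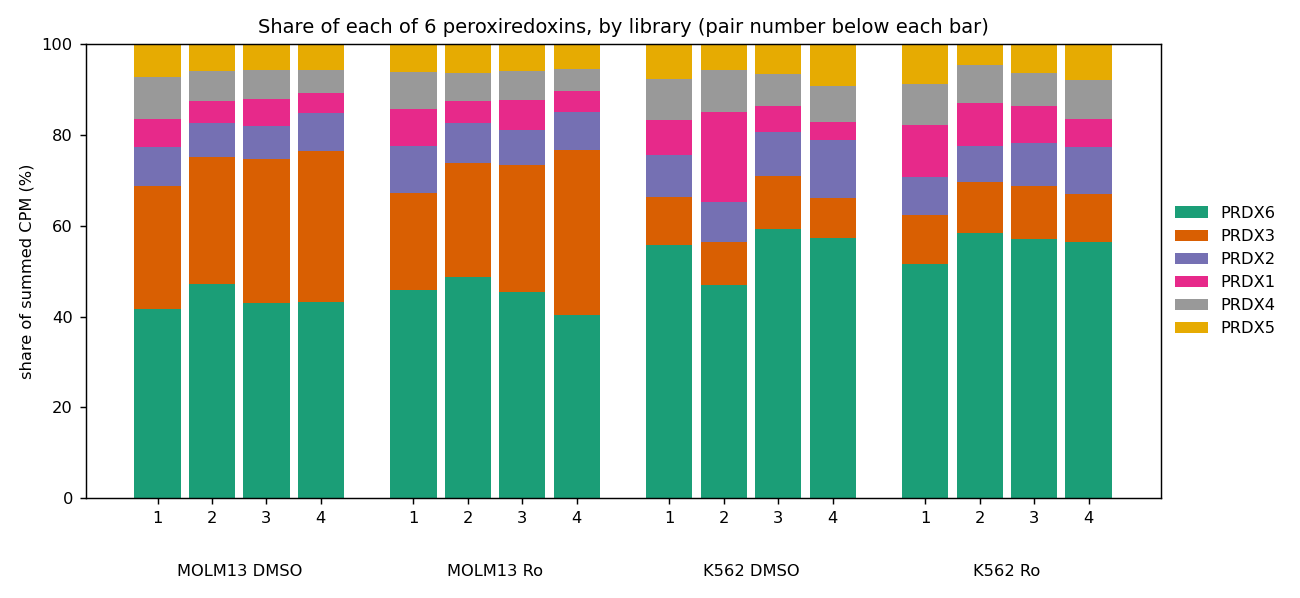
Share of each of PRDX1 to PRDX6 in their summed CPM (%, stacked bars, 1 bar for each of the 16 libraries, pair number below the bar). PRDX3 took 21.2% to 36.4% in every MOLM13 library and 8.79% to 11.8% in every K562 library.

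A wider list of 66 genes of the same chemistry was also read, comprising 15 partners of thioredoxin and peroxiredoxin, 24 further thioredoxin-fold oxidoreductases, 9 other peroxide and superoxide enzymes and 18 genes of selenoprotein synthesis and selenoproteins. Without the block 0 of 60 tested passed in MOLM13 and 0 of 58 in K562 by edgeR, none of them at an unadjusted p under 0.05, and DESeq2 without the block called none. With the pair as a block, 2 rose and 1 fell in MOLM13, where 2.11% of all genes passed. The list was drawn up with earlier results of these data known, so these calls are not independent evidence of a direction. TXNIP, the protein that binds and inhibits thioredoxin, went from 193 ± 74.5 to 267 ± 22.7 CPM (log2 0.54, standard error 0.11, adjusted p = 0.0102, higher in 3 of 4 pairs). SELENOO, a mitochondrial selenoprotein, went from 12.3 ± 3.84 to 16.4 ± 6.16 CPM (0.41, standard error 0.10, adjusted p = 0.0362, 4 of 4 pairs). RRM2, the ribonucleotide reductase subunit whose enzyme draws on thioredoxin, went from 64.9 ± 17.9 to 51.3 ± 10.6 CPM (-0.31, standard error 0.08, adjusted p = 0.0419, lower in 4 of 4 pairs). Leaving out pair 1 or pair 3 left 0 calls in this list, leaving out pair 2 left 1, and DESeq2 with the block called RRM2 and P4HB, both lower. In K562 the block gave 0 calls, with 1 up and 1 down at an unadjusted p under 0.05, pairs 1 and 3 alone gave 1 call, and TXNIP was at -0.08, SELENOO at -0.08 and RRM2 at -0.0039 with the block. Whether the lines differed was not tested. PRDX4 went from 25.6 ± 2.10 to 21.5 ± 0.872 CPM in MOLM13 (-0.22, standard error 0.09, adjusted p = 0.192 with the block, lower in 4 of 4 pairs) and from 63.0 ± 17.0 to 65.8 ± 20.2 CPM in K562. Every MOLM13 Ro library of PRDX4 (20.5 to 22.4 CPM) was below every DMSO library (23.5 to 28.0 CPM), although it did not pass the test. The share of all genes with a separation in this direction was not counted, so nothing is read from it.

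The median log2 change of the wider list without the block was -0.036 in MOLM13, where that of all genes tested was 0.00043, and 0.094 in K562, where it was 0.021. By group, the medians in MOLM13 ran from -0.17 for the other peroxide and superoxide enzymes to 0.031 for selenoprotein synthesis and selenoproteins. In K562 they ran from 0.050 for the partners to 0.14 for selenoprotein synthesis and selenoproteins. Between the untreated lines 25 of 60 passed, a share near the 41.3% of all genes, with 11 higher and 14 lower in MOLM13 and a median of -0.022 beside -0.0047 for all genes. Among the 14 partners tested 6 were higher and 2 lower in MOLM13. Among 17 tested genes of selenoprotein synthesis and selenoproteins 1 was higher and 6 were lower. Of all genes 21.1% were higher and 20.3% lower. Whether the groups differ from all genes was not tested.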

How the data were processed

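QuantSeq 3′ libraries were sequenced on a HiSeq instrument, and the deposited table holds whole-number counts per gene that the authors made with an in-house pipeline. The submitters' processing notes name hg38, Trim Galore, STAR 2.5.3a and SAMtools 1.5. The counter, the annotation, the strand setting and the treatment of multiply mapped reads are not given in the sources used here. ERCC spike-ins were added, but 0 such rows were in the table, so levels are relative. The 1425 rows without a symbol stayed in the fits.

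Groups and pair numbers came from the labels. The 10 members and the wider lists were chosen with earlier results of these data known. Genes reaching 10 counts in 4 or more of a comparison's 8 libraries were fitted with edgeR 4.0.16 (TMM, quasi-likelihood test, Benjamini-Hochberg over all genes tested, threshold 0.05) in R 4.3.3, separately for Ro against DMSO in each line and for MOLM13 against K562 in DMSO. The study's methods name no test for these counts. Log2 CPM used a prior count of 2. DESeq2 1.42.0, the pair number as a block, other filters and scalings, and leaving out each library were alternatives. The fits were tested on simulated data. Within a line, DMSO and Ro libraries of 1 pair number moved together, less so in K562: correlations of their deviations from group means were 0.384 to 0.831 in MOLM13 and 0.110 to 0.417 in K562. Between different pair numbers the mean was -0.162 in MOLM13 and -0.0927 in K562. Taking off the group means pulls these values below 0 where paired libraries agree, so they are no separate evidence of pairing. Libraries that correlated best with their own pair numbered 8 of 8 in MOLM13 and 7 of 8 in K562. Blocked values are therefore printed where they changed a call. Replicates of a group differed by more than counting noise (chi-square per degree of freedom of 10.1 or more between any of them).

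All 10 members and, from the wider lists, the genes past the threshold with the block, TXNIP and PRDX4 are named, and 4 of the 5 genes most correlated with SRXN1. The other one is not reported here. P4HB was named after its value was seen. Gene positions are from GENCODE 29 (GRCh38) and promoter windows from RefSeq (GRCh38.p14). Total counts per library ranged from 3143129 to 43571060, and 3 counts amount to 0.0689 to 0.954 CPM.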

Additional observations from a re-analysis of the deposited data

How the results depend on the processing

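For Ro against DMSO in MOLM13, 0 genes passed without the block, DESeq2 called 1, the replicate block 317, DESeq2 with the block 266, and the block without pair 1, 2, 3 or 4 gave 108, 192, 55 or 365. In K562 the count was 0 without and with the replicate block, 2 with DESeq2 and the block, and 374 with pairs 1 and 3 alone.

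Between the lines, the members called numbered 8, and leaving out 1 library gave 5 (without K562 pair 1, or without MOLM13 pair 2) to 8. Pair numbers did not pair the lines (mean correlation -0.0435). With that block 6 members and 5738 genes passed in place of 8 and 6313. Total-count scaling moved the median of all genes to -0.41 and the split from 3215 higher and 3098 lower to 2023 and 5008, which lowered every member's value without changing a sign. TXN and TXN2, not past the threshold, changed sign: TXN was -0.0953 in Ro libraries, and TXN2, at -0.501 with total-count scaling, ran with 1 library left out from -0.289 (without MOLM13 pair 4) to 0.0205 (without MOLM13 pair 1), with 0.0126 without K562 pair 4. For the 10 members and PRDX4, 141 values under alternatives kept direction and side of the threshold, 21 lost the call and 3 changed sign.

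With Ro, the signs of PRDX1 in both lines, PRDX2 in MOLM13 and PRDX5 in K562, all near 0 in the fit without the block, changed in 7 to 11 of the alternatives. In K562 the log2 changes under alternatives ran from -0.42 to 0.80 for PRDX1 and from -0.33 to 0.33 for PRDX5. Of the 4 K562 DMSO libraries, 2 were shallow.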
